A study of Mus musculus with 2 samples.

Results

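The 6 genes of naive and memory lymphocytes, Tcf7, Lef1, Klf2, Il7r, S1pr1 and Ccr7, were followed through the lymphocytes of 2 single-cell libraries from mouse tumours. They are 6 of the 34097 genes listed for each library and were chosen by name, and each had 1 row of its own. LLC cells, an established Lewis lung carcinoma line of mouse origin, formed the tumours, which were labelled as lung cancer xenografts. One library came from a control treatment (labelled NC), and the other (labelled SH) from a short hairpin RNA against Gfpt2, which encodes an enzyme of the hexosamine pathway. The cells that received the hairpin, the control hairpin, the host strain, its age and sex, and the number of tumours and animals per library are not given in the labels.

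Each group had 1 library, so replicate spread is unknown and no test was run. Intervals are at 95% and cover counting error only. The measured unit was the unique molecular identifier (UMI), a count of captured RNA molecules. Levels are in CPM, the UMIs of a gene scaled to the summed UMIs of the same cells and library. Ratios are log2 values of knockdown over control.

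Naive and resting memory lymphocytes circulate between blood and lymph nodes, while effector and exhausted T cells stay in the tissue where antigen holds them. TCF-1 and LEF-1, the products of Tcf7 and Lef1, are related transcription factors that keep T cells in a naive or stem-like memory state. KLF2, the product of Klf2, switches on S1pr1, the receptor that lets a lymphocyte leave tissue along a lipid gradient, while Ccr7 guides cells into lymph nodes and Il7r carries the survival signal of interleukin 7.

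The cells were gated on marker UMIs. A CD8 T cell had at least 2 UMIs of Cd3d, Cd3e and Cd3g together, at least 1 of Cd8a and Cd8b1, and 0 of Cd4. This gate held 479 of 10662 control cells and 423 of 11450 knockdown cells, with median depths of 3181 and 3140 UMIs. CD4 T cells (Cd4 without Cd8 or Foxp3) numbered 36 and 27, regulatory T cells (Foxp3) 19 and 17, and NK cells (at least 2 UMIs of Ncr1, Klrb1c and Klre1, with no Cd3) 52 and 62. The same minimum of 2 Cd3 UMIs was asked of the CD4 and regulatory T gates. Without it the CD4 gate held 107 control and 77 knockdown cells, of which 57.0% and 59.7% carried at least 3 UMIs of the macrophage genes C1qa, C1qb and C1qc. A further 249 and 211 T cells had Cd3 but no UMI of Cd4, Cd8 or Foxp3, and are called T cells without coreceptor UMIs.

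Other lineages were present inside the gates. At least 3 C1q UMIs were found in 15.7% of control and 18.4% of knockdown CD8 T-gated cells, and in 13.5% and 32.3% of NK-gated cells. The 7 macrophage markers summed to 5730 and 6628 CPM in the CD8 T gate, with none at 0, and to 753 and 8284 CPM in the NK gate, where Adgre1 and Csf1r were at 0 in the control library. Other lists also moved in the CD8 T gate. The 8 dendritic markers summed to 1561 and 2696 CPM, with Ccl22 at 0 in both libraries and Cd209a at 0 in the knockdown one. The 6 NK markers summed to 684 and 389 CPM, with Ncr1 at 0 among knockdown cells. They include Gzma, also an effector gene of CD8 T cells, which alone was at 417 and 126 CPM. The lower NK sum is therefore not read as fewer NK cells. The part of these in the member levels was not tested. Many values are also given without the cells that had at least 3 C1q UMIs or at least 2 UMIs of Hmga2, a tumour cell gene. Leaving those cells out took the CD8 T gate from 2470559 to 1344121 UMIs in the control library. In the knockdown library it went from 2108532 to 1128970 UMIs. The libraries shared 37 cell barcodes. Gfpt2 had 1.76 CPM in all kept control cells and 0.574 CPM in the knockdown cells, a log2 ratio of -1.61 (-2.02 to -1.22). In the CD8 T gate it had 6 and 1 UMIs.

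The 2 promoters that follow belong to the member that was lower in knockdown CD8 T cells with the most UMIs, Lef1, and to the member found in the most cells, Klf2. RefSeq sequences (GRCm38.p6) of the 250 bases before a transcript start were matched for 4 of the 6 members (Tcf7, Lef1, Il7r and Klf2). Lef1 lies at chr3:131110047-131110296 and Klf2 at chr8:72318812-72319032, both on the plus strand. The Klf2 stretch stops before the first exon annotated for it. The Lef1 stretch overlaps an annotated exon of another gene, Gm43352.

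Lef1: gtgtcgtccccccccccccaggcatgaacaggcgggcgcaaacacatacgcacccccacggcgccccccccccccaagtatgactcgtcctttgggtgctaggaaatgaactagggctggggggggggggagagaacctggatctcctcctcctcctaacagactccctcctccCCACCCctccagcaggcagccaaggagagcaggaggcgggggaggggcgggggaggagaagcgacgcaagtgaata

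Klf2: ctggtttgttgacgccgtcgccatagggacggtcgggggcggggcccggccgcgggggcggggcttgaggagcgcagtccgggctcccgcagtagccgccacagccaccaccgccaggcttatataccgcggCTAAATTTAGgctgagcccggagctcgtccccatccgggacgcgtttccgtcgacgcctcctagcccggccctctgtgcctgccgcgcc

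Capitals in the Lef1 sequence mark CCACCC, the core bound by KLF factors, 76 bases before the start. Those in the Klf2 sequence mark a match to the MEF2 motif, CTA and TAG with any 4 bases between, 118 bases before the start. MEF2 factors are known activators of Klf2. The KLF core occurred in 28.1% and the MEF2 motif in 3.2% of the 32851 mouse windows of this length, with both strands read. The TCF/LEF core was read in 4 spellings, which are CTTTGAA as the first, then CTTTGAT as another, CTTTGTA as the next and CTTTGTT as the last. It was held by 14.8% of windows and found in neither stretch. The ETS core GGAAGT was held by 19.7% of windows, the RUNX core TGTGGT by 14.0% and the FOXO core GTAAACA by 3.17%, and none of these was found in either stretch. The Klf2 window held the KLF core once more, 19 bases before the start and outside the printed stretch. A window before another RefSeq start of Lef1 held a TCF/LEF match, 147 bases before that start, and an ETS match. Matches of different motifs did not overlap. A match describes the letters only, and the absence of one says nothing of the factor.

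Across cell types, Lef1 was highest in the T and NK gates. In the control library, Tcf7 was highest in the T gates other than regulatory T cells, with lower levels elsewhere. The other members were at least as high in some other cell type of the control library as in CD8 T cells. Tcf7 in the control library was at 37.9 CPM in CD4 T cells (12.3 to 88.4), 32.2 CPM in T cells without coreceptor UMIs (23.7 to 42.9), 23.5 CPM in CD8 T cells (17.8 to 30.3) and 15.6 CPM in NK cells (5.07 to 36.4). These neighbours in the order overlapped in their intervals. Control macrophages (C1q with Adgre1 or Csf1r) had 1.19 CPM (0.736 to 1.82), below all 4. Regulatory T cells had 1 control UMI, or 10.9 CPM (0.277 to 60.9), and 0 knockdown UMIs. In the knockdown library, T cells without coreceptor UMIs, at 54.2 CPM (39.3 to 73.1), lay above CD8 T cells, at 17.5 CPM (12.4 to 24.2). NK cells were at 18.2 CPM there (7.30 to 37.4). Tumour-like cells, gated on Hmga2 without Ptprc or Cd3, had 10.8 CPM control and 9.52 CPM knockdown, and dendritic-gated cells had 13.0 and 10.3 CPM. Both overlapped with or lay near the NK level, so Tcf7 was not restricted to lymphocytes.

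Lef1 was more restricted. It was at 114 CPM in control CD4 T cells (63.6 to 188), 45.97 CPM in T cells without coreceptor UMIs (35.6 to 58.4), 34.4 CPM in NK cells (17.1 to 61.5) and 32.4 CPM in CD8 T cells (25.7 to 40.3). In the control library the interval of CD4 T cells lay above that of the other T cells, while NK cells and CD8 T cells overlapped. The order differed in the knockdown library. NK cells, at 49.3 CPM (29.7 to 77.0), lay above CD8 T cells, at 16.1 CPM (11.2 to 22.5). CD4 T cells, at 55.6 CPM (20.4 to 121), overlapped with T cells without coreceptor UMIs, at 63.1 CPM (46.8 to 83.2). Macrophages had 0.340 CPM control and 0.933 CPM knockdown, and tumour-like cells had 3.35 and 3.52 CPM.

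Klf2 was as high in myeloid cells as in lymphocytes. In the control library it was at 334 CPM in macrophages (325 to 342), 288 CPM in CD4 T cells (204 to 395) and 287 CPM in monocytes (250 to 328). CD8 T cells, at 142 CPM (128 to 158), did not differ beyond these intervals from tumour-like cells, at 144 CPM (141 to 147). Without the cells carrying C1q or Hmga2, control CD8 T cells were at 115 CPM (97.2 to 134), below the tumour-like level. S1pr1 was highest in the 14 control and 15 knockdown endothelial-gated cells, at 274 and 324 CPM, and Ccr7 in the dendritic gate, at 171 and 113 CPM. The endothelial S1pr1 level lay above that of every T gate in both libraries. The dendritic Ccr7 level did so in the control library, while in the knockdown library the regulatory T gate, with 2 UMIs, was at 53.9 CPM (6.53 to 195) and overlapped. Within this tissue the label of lymphocyte genes therefore held for Lef1, in part for Tcf7 and Il7r, and not for Klf2, S1pr1 and Ccr7. Il7r reached 284 CPM in control regulatory T cells (186 to 416) and 235 CPM in control CD4 T cells (160 to 333), but control CD8 T cells, at 40.1 CPM (32.6 to 48.8), lay between macrophages at 28.9 CPM and monocytes at 53.2 CPM (38.0 to 72.5). Without the cells carrying C1q or Hmga2, control CD8 T cells were at 58.0 CPM (45.9 to 72.4), above macrophages and overlapping with monocytes.

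**Figure D1:**
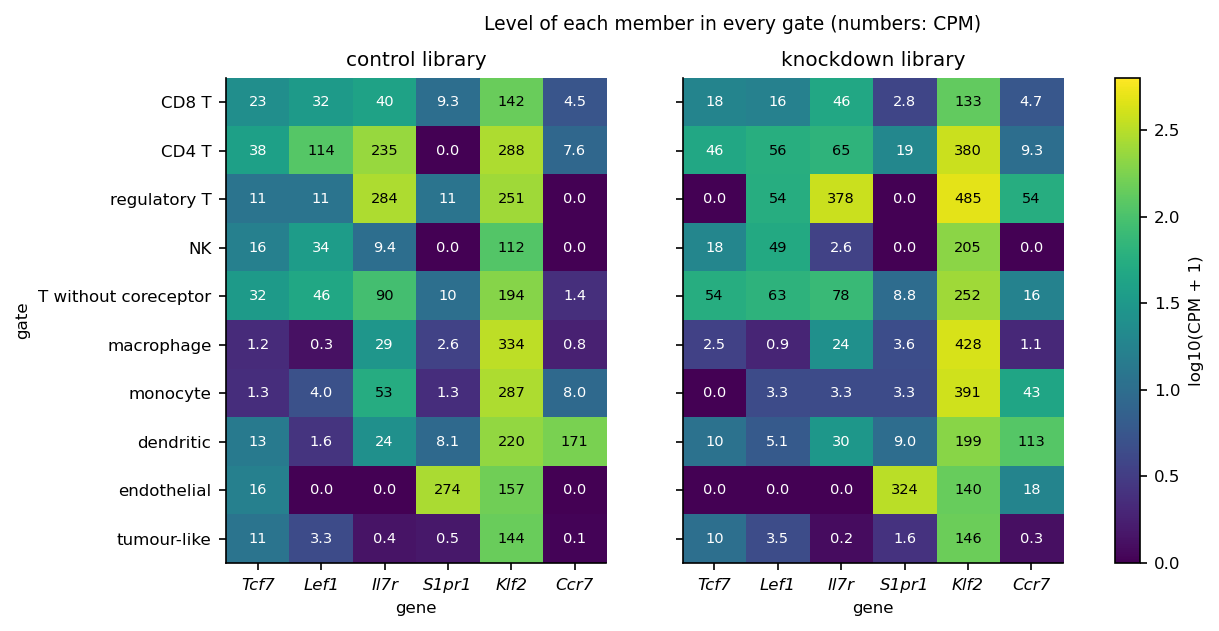
Level of each member (columns) in 10 marker gates (rows) in the control (left) and knockdown (right) library. Numbers are CPM and colour is log10(CPM + 1). Tcf7 and Lef1 are low in macrophages, Ccr7 peaks in the dendritic gate (171 and 113 CPM) and S1pr1 in the endothelial gate (274 and 324 CPM).

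Few CD8 T cells carried several members. Of the CD8 T-gated cells, 53.2% of control and 54.8% of knockdown cells had no UMI of any member, at median depths of 2894 and 2725 UMIs. At least 3 members were found in 18 control cells (3.76%, 2.24 to 5.87) and 10 knockdown cells (2.36%, 1.14 to 4.30), and none had all 6. These cells had median depths of 4485 and 5403 UMIs, so the number of members found follows depth and is not matched for it. At least 3 were also found in 24 of 249 control and 19 of 211 knockdown T cells without coreceptor UMIs, and in 5 of 36 (13.9%) and 3 of 27 (11.1%) CD4 T cells.

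Between the libraries, Lef1 and S1pr1 were lower in the CD8 T cells of the knockdown library, and Tcf7, Klf2, Il7r and Ccr7 did not differ beyond counting error. Of the 6 members, 5 had at least 20 UMIs in 1 library, the minimum for entering the comparison, and Lef1 and S1pr1 were 2-fold lower in the knockdown library, where 74 of 9692 genes were (0.764%). None was 2-fold higher, where 1.89% of genes were. S1pr1 reached the minimum only through the control library, in which it is higher, so the minimum itself favoured its call and nothing is read from the count of 2. The median log2 ratio was -0.42 over the 5 members and 0.06 over all 9692 genes. Ccr7, with 11 and 10 UMIs, did not reach the minimum.

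Lef1 had 80 UMIs in 55 control CD8 T cells and 34 UMIs in 28 knockdown CD8 T cells, or 32.4 and 16.1 CPM. The log2 ratio was -1.01 (-1.63 to -0.41), a level in the knockdown library that was 2.01-fold lower. Leaving out the cells carrying C1q or Hmga2, the levels were 50.6 and 21.3 CPM (-1.25, -1.99 to -0.56), where 1.22% of 7690 genes were 2-fold lower and 1.29% higher. After thinning each cell to 2000 UMIs, which left out 94 control and 97 knockdown cells, the share of cells with a Lef1 UMI was 7.01% (4.67 to 10.0) control and 3.99% (2.14 to 6.72) knockdown, against 11.5% and 6.62% unthinned. The difference of -3.03 percentage points had an interval that reached 0 (-6.57 to 0.57), so by share of cells it was not detectable at this depth. Thinned macrophages had shares of 0.0828% and 0.108%, at median depths of 6393 and 5348 UMIs before thinning.

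Tcf7 had 58 UMIs in 44 control cells and 37 UMIs in 27 knockdown cells of the CD8 T gate, or 23.5 and 17.5 CPM. The log2 ratio of -0.42 had an interval from -1.06 to 0.20, which includes 0. It was -0.44 (-1.20 to 0.30) in cells without C1q or Hmga2. Thinned shares were 5.19% control and 3.68% knockdown, against 9.19% and 6.38% unthinned, thinned macrophages had 0.0828% and 0.269%, and thinned tumour-like cells had 2.26% and 1.91%. The knockdown library was lower for both factors, but only Lef1 was lower beyond counting error, and the difference between the 2 genes was not tested.

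Klf2, the member with the most UMIs, had 352 in 129 control CD8 T cells and 281 in 118 knockdown cells, or 142 and 133 CPM. The log2 ratio was -0.10 (-0.33 to 0.13), an interval that stops short of the Lef1 value, and 0.01 (-0.34 to 0.35) in cells without C1q or Hmga2. The most Klf2 UMIs in 1 cell were 18 and 10. Thinned shares were 14.0% and 18.4%, below the 23.6% and 23.2% of tumour-like cells thinned in the same way, so detection of Klf2 does not single out CD8 T cells in this tissue. Unthinned, the shares were 26.9% and 27.9% in CD8 T cells and 78.9% and 72.5% in tumour-like cells, whose median depths were 21392 and 16106 UMIs.

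S1pr1, the exit receptor, had 23 UMIs in 20 control CD8 T cells and 6 UMIs in 5 knockdown cells, or 9.31 and 2.85 CPM. The log2 ratio was -1.71 (-3.30 to -0.37), from few molecules. The levels were 14.1 and 4.43 CPM without the cells carrying C1q or Hmga2, from 19 and 5 UMIs, under the minimum (-1.67, -3.45 to -0.21). The 4 endothelial markers summed to 30.4 and 18.0 CPM in the CD8 T gate, with Cdh5 and Emcn at 0 among knockdown cells. The dendritic sum above also differed between the libraries, as did the NK sum, which includes Gzma. Their part in Lef1 and S1pr1 was not tested. After thinning, 6 control cells (1.56%, 0.574 to 3.36) and 1 knockdown cell (0.307%) kept a UMI. Thinned macrophages had shares of 0.580% and 0.807% and thinned tumour-like cells 0.0353% and 0.307%. The control CD8 T share overlapped with that of macrophages in its interval and lay above that of tumour-like cells, and the knockdown share, from 1 cell, was not above either. The difference of -1.25 percentage points had an interval from -3.08 to 0.45, so it was not detectable at this depth.

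Il7r had 99 UMIs in 61 control CD8 T cells and 98 UMIs in 63 knockdown cells, or 40.1 and 46.5 CPM, a log2 ratio of 0.21 (-0.20 to 0.63). It was also 0.21 (-0.26 to 0.69) in cells without C1q or Hmga2. Thinned shares were 7.27% and 9.82%, against 4.27% and 4.14% in macrophages and 0.0353% and 0.0341% in tumour-like cells. Ccr7 was at 4.45 CPM control and 4.74 CPM knockdown, with a log2 ratio of 0.09 (-1.30 to 1.47), and 0.44 (-1.21 to 2.14) in cells without C1q or Hmga2. For Ccr7 the interval is wide enough that no change cannot be told from a 2-fold change in either direction.

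**Figure D2:**
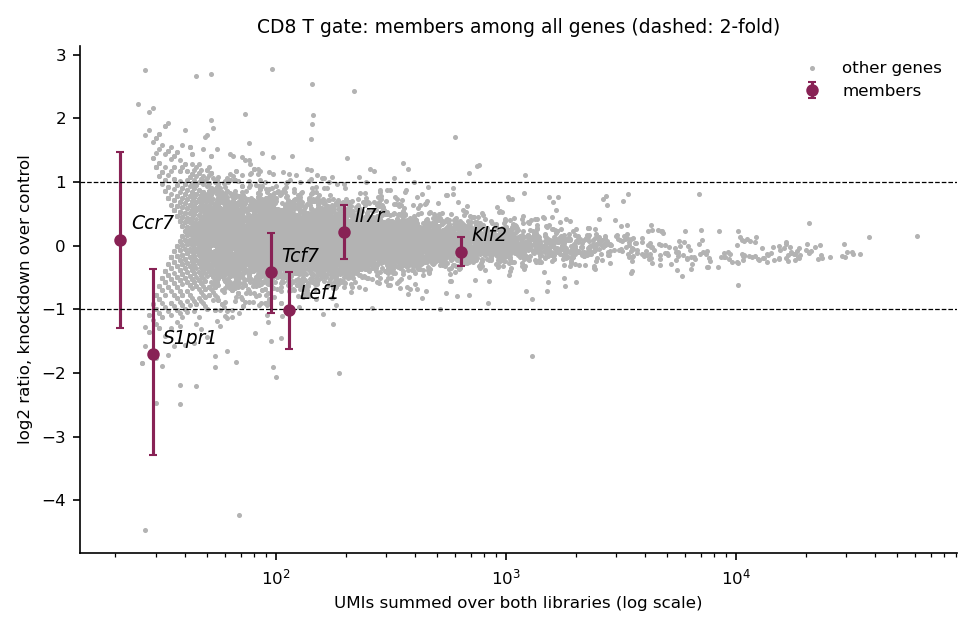
Each grey point is 1 of the genes tested in CD8 T cells, by UMIs summed over both libraries (x, log scale) and log2 ratio of knockdown over control (y). The members are in purple with 95% counting intervals, and dashed lines mark 2-fold. Lef1 (-1.01) and S1pr1 (-1.71) lie below the lower line, and Klf2 (-0.10) lies near 0.

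The other lymphocyte gates were small. In CD4 T cells, Il7r had 31 UMIs in 14 of 36 control cells and 7 UMIs in 5 of 27 knockdown cells, or 235 and 64.9 CPM. The log2 ratio was -1.86 (-3.28 to -0.65). Il7r and Klf2 had enough UMIs there. Il7r was 2-fold lower, in a gate where 4.49% of 1204 genes were 2-fold lower and 5.73% were 2-fold higher, but it reached the minimum only through the control library, which favours such a call. In cells without C1q or Hmga2 it had 26 and 4 UMIs (-1.87, -3.85 to -0.34). The gate without a Cd3 minimum gave -0.80, from 43 and 16 UMIs. Klf2 had 38 and 41 UMIs, or 288 and 380 CPM, a log2 ratio of 0.40 (-0.27 to 1.08), and 334 CPM in both libraries in cells without C1q or Hmga2. Lef1 had 15 UMIs in 13 control cells and 6 UMIs in 4 knockdown cells, with an interval that included 0 (-2.69 to 0.42, and -2.06 to 1.08 in cells without C1q or Hmga2). Tcf7 had 5 UMIs in each library. The macrophage markers summed to 9830 and 6923 CPM in this gate, with Adgre1 and Mrc1 at 0 in the knockdown library. The NK markers summed to 174 and 37.1 CPM, from 23 and 4 UMIs, and the monocyte markers to 682 and 408 CPM. The T cell markers summed to 3767 and 3586 CPM. The part of these in the member values was not tested.

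In regulatory T cells, Il7r had 26 UMIs in 14 of 19 control cells and 14 UMIs in 6 of 17 knockdown cells. Klf2 had 23 and 18 UMIs. Their log2 ratios of 0.41 (-0.64 to 1.40) and 0.95 (-0.03 to 1.90) were not apart from 0, and neither was past 2-fold, in a gate where 10.6% of 745 genes were 2-fold higher and 25.8% were 2-fold lower. Without the cells carrying C1q or Hmga2, which left 17 and 15 cells, Il7r was at 703 and 467 CPM and Klf2 at 520 and 534 CPM, so the direction for Il7r turned with those few cells. The macrophage markers summed to 842 and 6607 CPM there, with Adgre1 at 0 in the control library. The 8 T cell markers summed to 2557 and 6958 CPM and the 5 regulatory T markers to 2044 and 5744 CPM, both higher in the knockdown library, and their part in the ratios was not tested. Tcf7 and S1pr1 had 1 control UMI each and 0 knockdown UMIs, where 0 of 17 cells allows a share of cells with a UMI of up to 17.6% (3 counts of the total).

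In NK cells, Klf2 had 36 UMIs in 16 of 52 control cells and 79 UMIs in 24 of 62 knockdown cells, or 112 and 205 CPM. The log2 ratio was 0.87 (0.28 to 1.48), not past 2-fold, in a gate where 4.39% of 3464 genes were 2-fold higher and 3.75% were 2-fold lower. In the 45 and 42 cells left without those carrying C1q or Hmga2, the levels were 138 and 136 CPM, from 33 and 29 UMIs. The log2 ratio there was -0.019, and 2.17% of 2216 genes were 2-fold higher and 3.2% 2-fold lower. Lef1 had 11 and 19 UMIs, or 34.4 and 49.3 CPM (log2 ratio 0.52, -0.62 to 1.74, and 0.997, -0.27 to 2.36, in cells without C1q or Hmga2), and Tcf7 had 5 and 7. S1pr1 and Ccr7 had 0 UMIs in both libraries, and 0 of 52 and 0 of 62 cells allow shares of cells with a UMI of up to 5.77% and 4.84% (3 counts of the total). Il7r had 3 and 1.

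**Figure D3:**
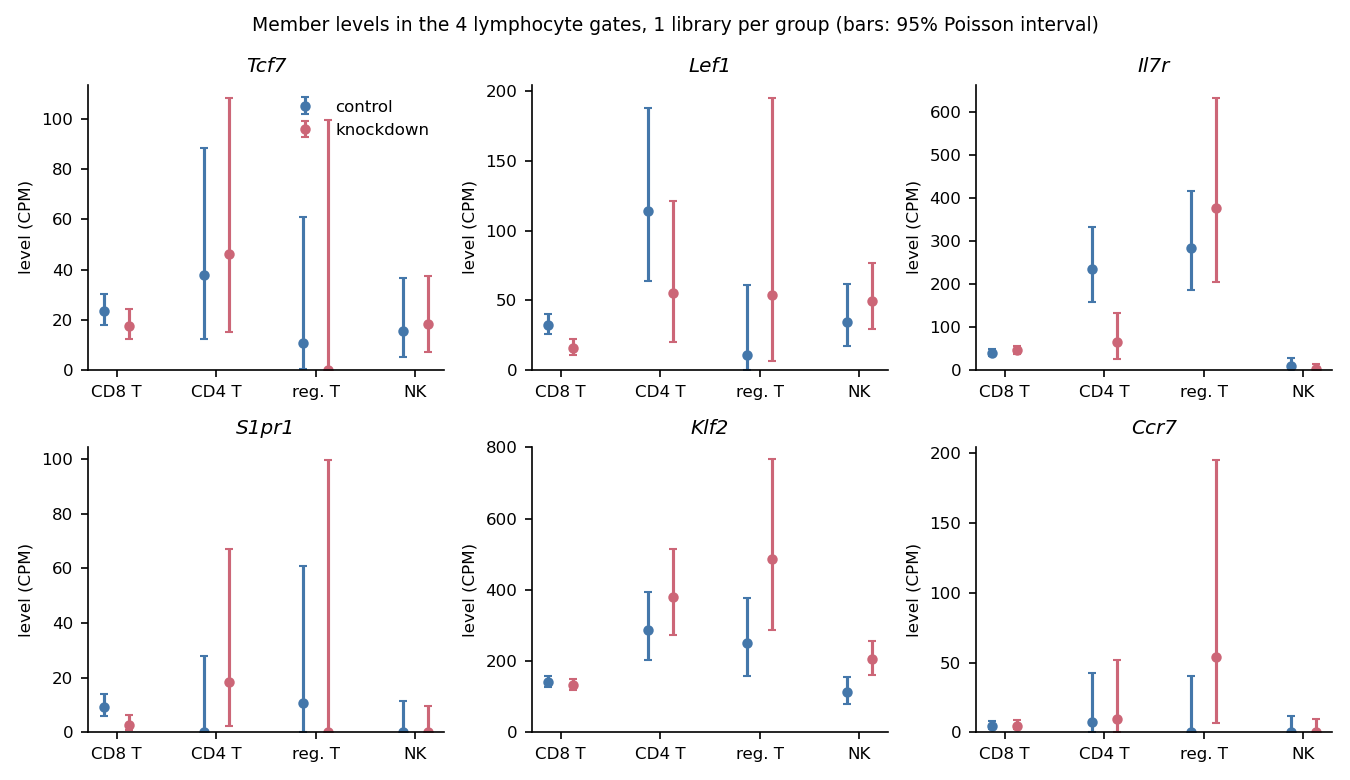
Level of each member (CPM, linear axis from 0) in the 4 lymphocyte gates. Points are the control (blue) and knockdown (red) library and bars are 95% Poisson intervals of the count. In CD8 T cells the Lef1 levels are 32.4 and 16.1 CPM, and in CD4 T cells the Il7r levels are 235 and 64.9 CPM.

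In T cells without coreceptor UMIs, Tcf7, Klf2 and Ccr7 were higher in the knockdown library beyond counting error, Ccr7 from few molecules. Tcf7 had 47 UMIs in 36 control cells and 43 UMIs in 36 knockdown cells, or 32.2 and 54.2 CPM, a log2 ratio of 0.75 (0.12 to 1.38). Lef1 was at 45.97 and 63.1 CPM (0.46, -0.10 to 1.01), and Klf2 at 194 and 252 CPM (0.38, 0.11 to 0.64). In cells without C1q or Hmga2 the ratios were 0.80 (0.03 to 1.58) for Tcf7, 0.20 (-0.44 to 0.83) for Lef1 and 0.41 (0.0098 to 0.81) for Klf2. None of the 4 members tested there passed 2-fold, against 1.96% of 8001 genes 2-fold higher and 2.37% 2-fold lower. Il7r was at 89.9 and 78.2 CPM (-0.20, -0.66 to 0.25), but at 236 and 123 CPM without the cells carrying C1q or Hmga2 (-0.94, -1.46 to -0.43). Ccr7 had 2 UMIs in 2 control cells and 13 UMIs in 7 knockdown cells, 6 of them in 1 cell (3.58, 1.44 to 6.77, and 3.03, 0.89 to 6.22, in cells without C1q or Hmga2). Trdc, a gamma-delta T cell gene, was found in 29 of these control cells and 17 of the knockdown cells, and the 3 gamma-delta markers summed to 195 and 66.9 CPM. The 8 T cell markers summed to 1942 and 3101 CPM, higher in the knockdown library as Tcf7 was, the NK markers to 552 and 286 CPM and the macrophage markers to 6930 and 9112 CPM. The part of these in the member values was not tested.

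Within the CD8 T gate, cells with a Tcf7 UMI had higher Lef1 in the control library, and higher Id3 and Xcl1 and lower Prf1 and Gzmb in both libraries. There were 44 such control cells and 27 knockdown cells, with median depths of 3971 and 3864 UMIs, against 3113 and 3126 UMIs for the rest. C1q or Hmga2 was carried by 29.5% and 29.6% of them, against 16.3% and 19.9% of the rest. These carriers held a larger part of the UMIs. Without them the cells with a Tcf7 UMI went from 374002 to 134667 UMIs control and from 211190 to 59224 knockdown. The rest went from 2096557 to 1209454 and from 1897342 to 1069746. The gamma-delta T cell gene Trdc had 4 UMIs with and 6 without a Tcf7 UMI in the control library, and 5 and 1 in the knockdown library. Lef1 was at 61.5 CPM with and 27.2 CPM without a Tcf7 UMI in the control library (log2 ratio 1.18, 0.41 to 1.90), and at 33.1 and 14.2 CPM in the knockdown library (1.22, -0.22 to 2.45). The knockdown interval included 0. The ratios were 1.90 (1.07 to 2.68) control and 1.85 (-0.16 to 3.43) knockdown in cells without C1q or Hmga2.

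Klf2 was at 273 CPM in control CD8 T cells with a Tcf7 UMI and 119 CPM in those without (1.19, 0.85 to 1.53). In the knockdown library it was at 161 and 130 CPM (0.31, -0.26 to 0.83). With C1q and Hmga2 carriers left out, the control levels were 342 and 89.3 CPM (1.94, 1.40 to 2.45) and the knockdown levels 169 and 112 CPM (0.59, -0.51 to 1.52). Among the cells with a Tcf7 UMI, Klf2 was thus lower in the knockdown library (log2 ratio -0.76, -1.37 to -0.19), while among those without it the ratio was 0.13 (-0.13 to 0.39). Without the cells carrying C1q or Hmga2 these were -1.02 (-2.17 to -0.01), from 46 and 10 UMIs, and 0.33 (-0.06 to 0.72). The difference between the 2 ratios was not tested. Il7r showed no difference by Tcf7 UMI beyond counting error, at 37.4 CPM with and 40.5 CPM without in the control library and 28.4 and 48.5 CPM in the knockdown library. The control ratio was 0.97 (0.02 to 1.82) once cells carrying C1q or Hmga2 were left out.

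Over all gated CD8 T cells, those with a Tcf7 UMI carried more Id3 and Xcl1 and less of most effector genes. Of the 18 effector genes, 14 had intervals below 0 among control cells and 14 among knockdown cells, where 9.41% and 6.68% of all 9691 genes did. A gene with more UMIs has a narrower interval, and the shares over all genes here are not matched for UMIs. In cells without C1q or Hmga2, 10 and 8 of the 18 did, against 3.05% and 1.5% of all genes. Intervals above 0 were found for 2 of the 18 in the control library and 0 in the other, against 9.39% and 7.27% of all genes, and for 1 and 0 in cells without C1q or Hmga2, against 4.99% and 3.67%. Ccl5, the effector gene with the most UMIs, was at 3636 CPM with and 2454 CPM without a Tcf7 UMI in the control library (0.57, 0.48 to 0.65), but at 2413 and 3425 CPM in cells without C1q or Hmga2 (-0.50, -0.67 to -0.34). In the knockdown library it was at 985 and 1791 CPM (-0.86, -1.07 to -0.66), but at -0.07 (-0.33 to 0.17) in cells without C1q or Hmga2, so no direction is read from it. Zeb2, an effector transcription factor, had a control ratio of 0.77 (0.36 to 1.17) and a knockdown ratio of -0.74 (-1.40 to -0.14). Both of its intervals included 0 in cells without C1q or Hmga2, at 0.73 and 0.52. Id3, a transcription regulator of memory precursors, was at 152 CPM with and 41.97 CPM without a Tcf7 UMI in the control library, and at 123 and 47.4 CPM in the knockdown library. Xcl1, a chemokine that draws cross-presenting dendritic cells, was at 195 and 97.8 CPM control and 298 and 106 CPM knockdown. Of the Id3 UMIs of the whole gate, 55 of 145 control and 53 of 116 knockdown were in cells without C1q or Hmga2. For Xcl1 these were 268 of 278 and 195 of 265. The split of Id3 and Xcl1 by Tcf7 UMI in those cells is not given here. Cd27, of the same memory list, went the other way in the control library, at 32.1 and 68.7 CPM (-1.10, -2.08 to -0.25), and was at -0.06 (-0.85 to 0.64) in the other, and both intervals included 0 in cells without C1q or Hmga2. Prf1, which encodes the pore-forming protein perforin, was at 5.35 and 201 CPM control and 14.2 and 410 CPM knockdown. That is 2 of 423 control Prf1 UMIs and 3 of 780 knockdown Prf1 UMIs, and none once cells carrying C1q or Hmga2 were left out. Gzmb, the granzyme B gene, was at 120 and 508 CPM control and 161 and 584 CPM knockdown. The inhibitory receptor genes Pdcd1 and Lag3 and the exhaustion factor Tox were lower with a Tcf7 UMI in both libraries, with log2 ratios of -2.48, -2.53 and -1.43 control and -1.35, -1.37 and -1.21 knockdown. Without the cells carrying C1q or Hmga2, the knockdown intervals of these 3 included 0, with ratios of -0.43, -0.69 and -0.43. Slamf6, another stem-like marker, had 1 control and 3 knockdown UMIs in cells with Tcf7, too few to compare.

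**Figure D4:**
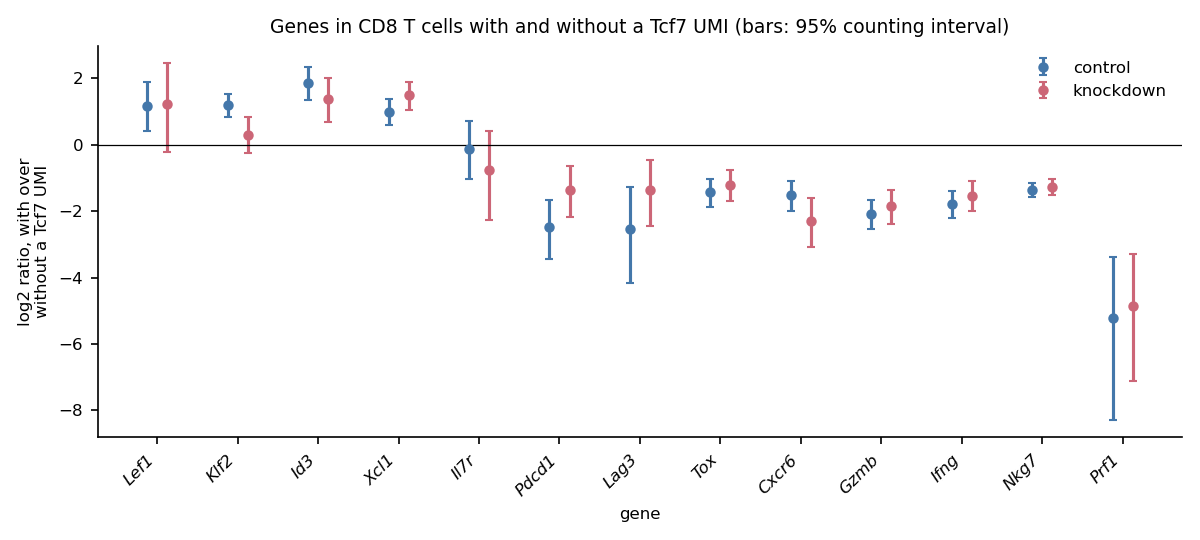
Log2 ratio of each gene's level in CD8 T cells with over those without a Tcf7 UMI, over all gated cells, in the control (blue) and knockdown (red) library, with 95% counting intervals. Id3 (1.86 and 1.38) and Xcl1 (1.00 and 1.49) lie above 0, and Prf1 (-5.23 and -4.85) lies farthest below.

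The members divided into opposite directions when CD8 T cells were split by the checkpoint receptors Pdcd1 and Havcr2, which mark antigen-experienced and exhausted cells. This split was chosen after member levels had been seen. A UMI of either was found in 220 control cells (45.9%, 41.4 to 50.5) and 240 knockdown cells (56.7%, 51.9 to 61.5). Median depths with and without were 3854 and 2671 UMIs control and 3623 and 2696 UMIs knockdown. Tcf7, Lef1 and Klf2 were lower in the cells with a checkpoint receptor UMI in both libraries. Tcf7 was at 11.0 CPM with and 36.8 CPM without in the control library (-1.75, -2.73 to -0.85) and at 10.6 and 27.3 CPM in the knockdown library (-1.37, -2.46 to -0.34). Lef1 was at 11.0 and 55.3 CPM control (-2.33, -3.28 to -1.49) and at 6.51 and 29.6 CPM knockdown (-2.18, -3.54 to -0.997). Klf2 was at 104 and 183 CPM control (-0.82, -1.14 to -0.50) and at 87.1 and 198 CPM knockdown (-1.18, -1.54 to -0.83). Klf2 in cells without C1q or Hmga2 was at 63.1 and 173 CPM control (-1.45, -1.99 to -0.94) and at 59.1 and 204 CPM knockdown (-1.79, -2.36 to -1.24). The ratios there were -2.26 (-3.59 to -1.13) and -1.35 (-2.65 to -0.12) for Tcf7, and -2.71 (-3.85 to -1.73) and -2.60 (-4.37 to -1.13) for Lef1.

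Il7r went the other way. It was at 50.1 CPM with and 29.3 CPM without a checkpoint receptor UMI in the control library (0.77, 0.16 to 1.41) and at 63.5 and 22.7 CPM in the knockdown one (1.48, 0.76 to 2.27). The ratios were 0.82 (0.12 to 1.56) and 1.24 (0.42 to 2.13) in cells without C1q or Hmga2. So Il7r, a memory gene by its usual role, sat with Pdcd1 and Havcr2 in these CD8 T cells. S1pr1 had 1 UMI with and 22 without in the control library, and 5 with and 1 without in the knockdown library.

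**Figure D5:**
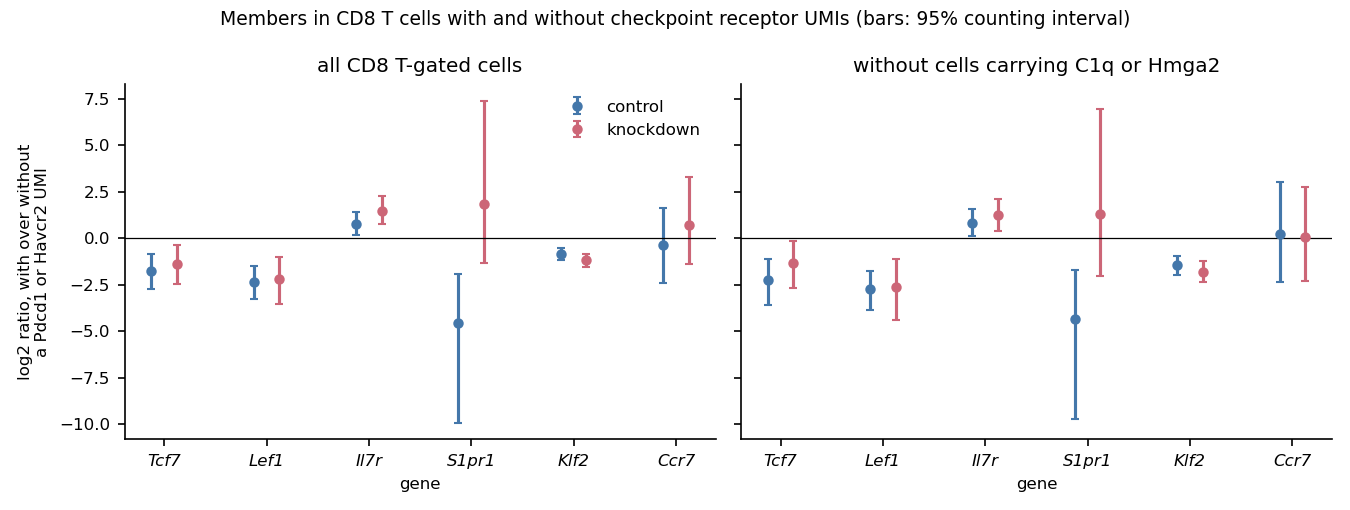
Log2 ratio of each member's level in CD8 T cells with over those without a Pdcd1 or Havcr2 UMI, for all gated cells (left) and without cells carrying C1q or Hmga2 (right), with 95% counting intervals. Tcf7, Lef1 and Klf2 lie below 0 in both libraries, and Il7r lies above 0 (0.77 control, 1.48 knockdown).

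The lower Lef1 level of the knockdown library was present on the side without checkpoint receptor UMIs, where Lef1 had 66 UMIs control and 26 knockdown (-0.90, -1.62 to -0.23). With a checkpoint receptor UMI it had 14 and 8 (-0.75, -2.21 to 0.60). These were -1.07 (-1.91 to -0.31) and -0.96 (-2.86 to 0.72) in cells without C1q or Hmga2. A further split by the proliferation genes Mki67 and Top2a, also chosen after levels had been seen, placed 187 control and 153 knockdown cells on the cycling side. Lef1 had 54 UMIs control and 16 knockdown in the cells without a Mki67 or Top2a UMI, or 49.9 and 16.6 CPM (-1.58, -2.49 to -0.76), and 26 and 18 UMIs in those with one (-0.26, -1.21 to 0.67). Leaving out the cells with C1q or Hmga2, the ratios were -2.13 (-3.27 to -1.13) without and 0.0083 (-1.12 to 1.12) with a UMI of either. Whether these differ from each other was not tested. S1pr1 had 14 and 2 UMIs without and 9 and 4 with.

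Members were detected together only in part. Among control CD8 T cells, 31.8% (18.6 to 47.6) of those with a Tcf7 UMI also had Lef1, against 9.43% (6.85 to 12.6) of those without. In the knockdown library the shares were 22.2% (8.62 to 42.3) and 5.56% (3.51 to 8.29). Klf2 was found in 54.5% of control cells with Tcf7 and 24.1% of those without, and in 48.1% and 26.5% of knockdown cells. Il7r and Lef1 showed no such pairing: 5 of 61 control cells with Il7r had Lef1 (8.20%), against 12.0% of those without. Cells with more UMIs detect more of any gene, and these shares are not matched for depth.

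Few genes of the wider partner lists passed 2-fold in CD8 T cells, where 0.764% of all genes were 2-fold lower and 1.89% higher. Of 25 memory and naive partner genes, 18 had enough UMIs, and 1 was 2-fold lower: Igfbp4, an insulin-like growth factor binding protein found in naive T cells, had 154 UMIs control and 33 knockdown (-1.99, -2.58 to -1.44), and 28 and 4 in cells without C1q or Hmga2. The median of these 18 was 0.05, against 0.06 over all genes. Bach2, a factor that restrains effector differentiation, was at 39.3 and 55.5 CPM (0.50, 0.10 to 0.90), the costimulatory receptor gene Cd27 at 63.1 and 88.7 CPM (0.49, 0.18 to 0.81), and Ly6c1, a surface protein of memory cells, at 186 and 109 CPM (-0.78, -1.01 to -0.55). In cells without C1q or Hmga2, Ly6c1 was at 0.04 (-0.48 to 0.55) and Bach2 at 0.41 (-0.05 to 0.87). None of 9 WNT and TCF partners passed 2-fold, with a median of 0.15. Among these Tcf7l2, a relative of Tcf7, was at 16.6 and 32.7 CPM (0.98, 0.40 to 1.57), and Bcl9l and Ccnd1 were the lowest at -0.59 and -0.33. In cells without C1q or Hmga2 these 3 had intervals that included 0, with 7 and 10 UMIs left for Tcf7l2. None of 12 interleukin 7 signalling genes passed 2-fold, with a median of 0.07. The signalling inhibitor gene Socs3 was highest, at 42.5 and 61.7 CPM (0.54, 0.15 to 0.92), and Stat5b, a transcription factor activated by the receptor, was lowest, at 60.7 and 50.7 CPM (-0.26, -0.63 to 0.11), and at 85.6 and 60.2 CPM in cells without C1q or Hmga2 (-0.51, -0.96 to -0.06).

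In the sphingosine 1-phosphate list, 1 of 10 genes was 2-fold lower: Plpp3, a phosphatase that breaks down the lipid, had 46 and 18 UMIs (-1.13, -2.00 to -0.31). It reached the minimum only through the control library, and in cells without C1q or Hmga2 it had 11 and 9 UMIs (-0.04, -1.49 to 1.37). S1pr4, another receptor of the lipid on lymphocytes, was at 22.3 and 12.8 CPM (-0.80, -1.52 to -0.11, and -1.50 to 0.10 in cells without C1q or Hmga2). Sgpp1, another phosphatase of the pathway, was at 13.8 and 23.2 CPM (0.76, 0.10 to 1.43, and -0.40 to 1.21 in cells without C1q or Hmga2). Cd69, whose product pulls the S1pr1 receptor off the surface, was at 198 and 151 CPM (-0.38, -0.59 to -0.18). In the Klf2 pathway list, 1 of 10 genes was 2-fold higher: Mef2c, whose motif family was found in the Klf2 promoter, had 37 and 70 UMIs (1.15, 0.55 to 1.76), but 10 and 8 UMIs in cells without C1q or Hmga2 (-0.07, -1.61 to 1.42). Itgb7, a gut-homing integrin subunit, was at 64.0 and 39.8 CPM (-0.68, -1.08 to -0.29). Of 4 genes of the Ccr7 list none passed 2-fold, and Cxcr4, another homing receptor, was lowest at 25.5 and 14.2 CPM (-0.84, -1.52 to -0.19, and -1.22 to 0.44 in cells without C1q or Hmga2).

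Of 17 exhaustion genes none passed 2-fold in the same CD8 T cells, and 14 were above 0, with a median of 0.19, while 58.2% of all 9692 genes were above 0, with a median of 0.06. Havcr2 was at 48.2 and 87.7 CPM (0.87, 0.53 to 1.21) and Lag3 at 67.6 and 115 CPM (0.77, 0.48 to 1.06). Of 18 effector genes, 2 were 2-fold higher and 1 was 2-fold lower, where 1.89% and 0.764% of all genes were, with 13 above 0 and a median of 0.27. Prf1 was at 171 and 370 CPM (1.11, 0.94 to 1.29) and Ccl3, an inflammatory chemokine, at 101 and 244 CPM (1.27, 1.05 to 1.49), while Gzma, the granzyme A gene, was at 417 and 126 CPM (-1.73, -1.93 to -1.53). Ccl5 was at 2633 and 1711 CPM (-0.62, -0.68 to -0.56) and the granzyme gene Gzmc at 147 and 87.3 CPM (-0.75, -1.01 to -0.49). Ratios in cells without C1q or Hmga2 were 1.15 for Prf1, 1.34 for Ccl3, -1.62 for Gzma, 1.00 for Havcr2 and 0.84 for Lag3. None of 9 tissue residency genes passed 2-fold, with a median of 0.28. P2rx7, a receptor for extracellular ATP, was highest among them at 0.75 (-0.02 to 1.55), and Itga1, an integrin subunit of resident cells, lowest at -0.63 (-1.17 to -0.11, and -1.02 to 0.11 in cells without C1q or Hmga2).

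In CD4 T cells only a few list genes had enough UMIs. Those past 2-fold were Ly6c1, with 3 and 27 UMIs (3.46, 1.76 to 5.82), Gzmb, with 11 and 35 (1.96, 0.95 to 3.09), the residency chemokine receptor Cxcr6, with 18 and 39 (1.41, 0.57 to 2.30), the cytotoxic granule gene Nkg7, with 70 and 27 (-1.08, -1.78 to -0.42), and the chemokine Ccl5, with 235 and 79 (-1.28, -1.67 to -0.91). They went in both directions, in a gate where 5.73% of genes were 2-fold higher and 4.49% lower. Ly6c1, Gzmb and Cxcr6 reached the minimum only through the knockdown library, which favours such calls. In cells without C1q or Hmga2, Ly6c1 had 1 UMI in each library and Nkg7 was at -0.61 (-1.34 to 0.07), while Gzmb, Cxcr6 and Ccl5 were at 2.37, 1.75 and -1.30.

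The genes most like each member were named by Pearson correlation of log2(CPM + 10) over the 16 gate-by-library sums with at least 50 cells, among 7118 genes. Those points share libraries and differ in depth and cell type, so the values are descriptions. They include a gate on B cell markers, in which 64 of 68 control and 60 of 61 knockdown cells carried C1q. Tcf7 was most like Ets1 (r = 0.90), and Nol10 (0.89) was also among its nearest 3. Lef1 was most like Gm2682 (0.97), Tnfsf11 (0.97) and S1pr4 (0.95), and Klf2 like Lst1, Rnpep and Epn1 (each 0.93). For Il7r the nearest were Gm15283 (0.82) and Traf6 (0.81), for S1pr1 they were Mif4gd (0.85), Socs2 (0.81) and Snrk (0.77), and for Ccr7 they were Ncoa7 (0.94), Myo9a (0.90) and Timeless (0.88). Among the members themselves, Tcf7 and Lef1 were the most alike (0.86), and Tcf7 and Klf2 the least (-0.64).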

How the data were processed

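Single-cell RNA of 1 control and 1 knockdown library from tumours was deposited as raw UMI counts, whole numbers for each gene in each barcode. The file headers name Cell Ranger 6.1.0. The submitters' processing notes list Cell Ranger 3.1.0. The genome build, the annotation and any later filter on cells are not given in the sources used here. The control library held 11977 barcodes with 165824226 UMIs and the knockdown library 12853 barcodes with 138402860 UMIs.

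Cells with under 200 genes or over 20% mitochondrial UMIs were left out. Doublets were removed as the highest Scrublet scores (scanpy 1.11.5), at 0.8% per 1000 cells, which took 1148 control and 1322 knockdown cells. Counts were summed per gate and library. Poisson intervals are given for levels, Clopper-Pearson intervals for shares and exact conditional binomial intervals for ratios, all at 95%. Ratios need at least 20 UMIs in 1 library to be counted against 2-fold. For shares, each cell was thinned to 2000 UMIs. The calculations were tested on simulated data. Python 3.11.15, numpy 2.4.6, scipy 1.17.1 and pandas 2.3.3 were used.

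The rule named all 6 members, the 3 genes most like each, and, of each list, genes past 2-fold and, where fewer than 2 passed, the 2 highest and 2 lowest. Some genes that the rule or the lists name are not reported here. In CD4 T cells only those past 2-fold are given, and in CD8 T cells some of the others. Genes described with and without a Tcf7 UMI, and Ccl5 and Gzmc in CD8 T cells, were chosen after their values were seen, and values of list genes without cells carrying C1q or Hmga2 were added then. The members and lists were chosen with earlier results of these data known. A gate on B cell markers is not described, because 64 of its 68 control and 60 of its 61 knockdown cells carried C1q, though its sums are among the points of the correlations. Alternatives covered doublets, gates, other lineages, scaling, cell filters, thinning and the gene filter.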

Additional observations from a re-analysis of the deposited data

How the results depend on the processing

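The ratios of Lef1 and S1pr1 in CD8 T cells kept their direction under the 9 alternatives that touch this gate, with log2 values from -1.34 to -0.63 for Lef1 and from -2.46 to -1.11 for S1pr1, and Il7r in CD4 T cells ranged from -1.98 to -0.80. Klf2 in NK cells, 0.87 as reported, was 0.092 without doublet removal, 0.23 with Scrublet's own threshold and -0.019 without cells carrying C1q or Hmga2. Lef1 in CD4 T cells turned to 0.12 with Scrublet's own threshold, and the cause was not tested. Il7r in regulatory T cells was -0.65 without the Cd3 minimum. Stricter gates gave -2.34 for Il7r and -0.96 for Klf2 in regulatory T cells and -0.52 for Klf2 in CD4 T cells. Thinning to 2000 UMIs gave 0.34 for Klf2 and -2.08 for Ccr7 in CD8 T cells, the latter from 5 and 1 UMIs. The difference in the share of CD8 T cells with Klf2 was -1.99 percentage points when thinned to 1000 UMIs and -2.79 without doublet removal, against 4.38. Genes past the fold in CD8 T cells numbered 257, and 4719 with at least 1 UMI, 64 with at least 50 UMIs and 1100 at 1.5-fold. Leaving out cells with C1q or Hmga2, an alternative for the splits chosen after seeing the data, gave control ratios by Tcf7 UMI of 1.90 for Lef1, 0.97 for Il7r and 1.94 for Klf2, and ratios by checkpoint receptor UMI for Klf2 of -1.45 control and -1.79 knockdown. Of 173 alternative values of member levels, 163 stayed within the counting interval of the reported one, 10 of them under a change to the CD4 and regulatory T gates that cannot touch CD8 T or NK cells. Leaving out cells with C1q or Hmga2, also added after seeing the data for the list genes, kept 117 of 134 list values in CD8 T and CD4 T cells within their interval, moved 16 and turned 1 that was past 2-fold, Mef2c in CD8 T cells, to -0.070. Of the 16, 8 also changed sign (Ccnd1, Cx3cr1, Fscn1, Jak1, Ly6c1 and Xcl1 in CD8 T cells, and Cd44 and Zeb2 in CD4 T cells), none of them past 2-fold as reported, and so did 13 of the 117. No paired analysis was possible because each group has 1 library. Depth limits Ccr7 and S1pr1 in every T gate, and the CD4 and regulatory T gates for all members.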

Other observations

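Outside the lymphocyte gates, some members differed between the libraries beyond counting error. S1pr1 had 35 UMIs in the control tumour-like cells and 85 UMIs in the knockdown ones, or 0.526 and 1.59 CPM, a log2 ratio of 1.60 (1.02 to 2.21). It was far below the 274 and 324 CPM of the endothelial gate in both libraries. In the tumour-like gate the macrophage markers summed to 570 and 934 CPM, the dendritic markers to 93.6 and 231 CPM and the endothelial markers to 1.35 and 1.99 CPM. Their part in the S1pr1 value was not tested. Tumour-like cells also had Ccr7 at 5 and 16 UMIs (2.00, 0.48 to 3.80) and Tcf7 at a log2 ratio of -0.18 (-0.35 to -0.02). In macrophages, Klf2 was at 334 CPM control and 428 CPM knockdown (0.36, 0.31 to 0.41), and Tcf7 had 21 and 29 UMIs (1.05, 0.19 to 1.93). The dendritic markers summed to 15578 and 21463 CPM in the macrophage gate, and their part was not tested. Il7r in macrophages was at 28.9 and 24.3 CPM (-0.25, -0.46 to -0.04), and in monocytes it had 40 UMIs in 11 of 129 control cells and 1 UMI in 56 knockdown cells. Ccr7 in knockdown monocytes came from 1 cell with 13 UMIs.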
